A study of Arabidopsis thaliana with 4 samples.

Results

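Transcripts of 7 xyloglucan endotransglucosylase/hydrolase (XTH) genes were followed in Arabidopsis thaliana rosette leaves: XTH16, XTH18, XTH19, XTH20, XTH32, XTH33 and EXGT-A3, which is the older name of XTH27. The genes were chosen by symbol from the platform annotation, with earlier results of these data known. The rule's use of measured values was to take the probe set of highest mean signal for each gene, and since each of the 7 genes had 1 probe set this choice removed nothing. They are 7 of 13286 genes with a probe set of their own and a gene ID. The leaves came from wild-type Col-0 plants 3 weeks old, grown on soil under 16 h of light and 8 h of darkness. From 4 h after the lights came on, detached leaves lay for 1 h on water (mock) or on a 0.1 mM solution of flavin adenine dinucleotide (FAD), the flavin cofactor of many oxidoreductases. Each treatment had 2 biological replicates per the labels, each measured on 1 Affymetrix array, and the leaves of all 4 samples were detached and floated. No array of attached or freshly cut leaves was analysed here, and the labels do not say how many plants stood behind a replicate, and p-values therefore cover only the spread seen among the 4 arrays, which may be technical.

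Xyloglucan is a branched glucan that coats and links cellulose microfibrils in the primary walls of flowering plants. XTH enzymes cut a xyloglucan chain and join the new end to another xyloglucan, which is the transglucosylase activity, or to water, which is the hydrolase activity. By this they let a wall loosen, extend or be repaired, and several family members in Arabidopsis are known to respond to touch, auxin, brassinosteroid and light. The glucan backbone that they act on is made in the Golgi by enzymes of the CSLC family.

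The 4 arrays had been scaled to a common level, with a trimmed mean signal of 500.1 on each. FAD replicate 2 stood apart in one group of 9 spike-in control probe sets. Over these the median ratio of the mean of the other arrays over this one was 5.43. In a second group of 9 spike-in probe sets that median was 0.908. The log2 fold changes of XTH16, XTH18, XTH19, XTH32, XTH33 and EXGT-A3 are therefore also given without FAD replicate 2 below. For the other wall genes and the markers no such value is given. The 2 named markers of photosynthetic leaf cells were bright on every array, LHCB4.1 at 34490 or above and RCA at 36925 or above. EXPA7 and EXPA18, markers of root hair cells, reached at most 53.3 and 69.7 on any array and had mean signals below the filter on dim probe sets, a geometric mean of 63.6. Whole leaves were extracted, so fewer cells of a type and less RNA per cell cannot be told apart.

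None of the 7 XTH genes passed the test of FAD against mock. Transcripts of XTH16, XTH19 and XTH33 had signals 1.42 to 1.46 times as high on FAD as on water, and XTH18 had 1.23 times, with both FAD arrays above both mock arrays in these 4 genes, as in 22% of all tested probe sets. The groups of XTH18 overlapped under quantile normalization and median centring. XTH20, XTH32 and EXGT-A3 had overlapping groups. The test was limma over 13648 probe sets, in which 0 probe sets (0% of those tested) were called higher and 5 (0.0366%) lower at a Benjamini-Hochberg adjusted p under 0.05.

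**Figure D1:**
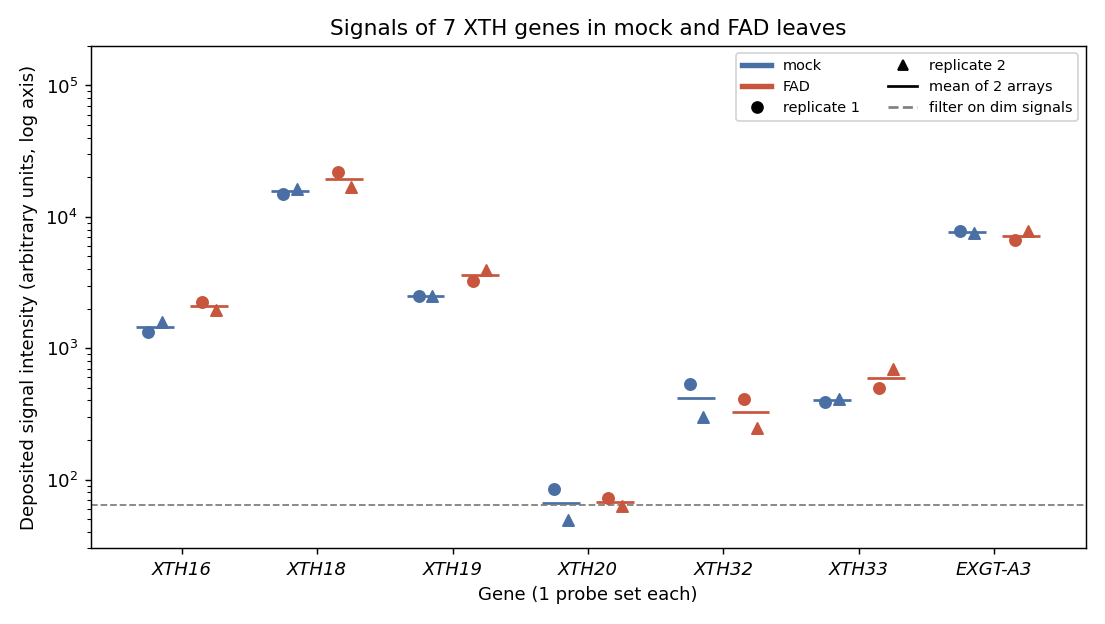
Deposited signal of each XTH probe set on the 4 arrays (log axis, arbitrary units), with mock in blue, FAD in red, circles for replicate 1, triangles for replicate 2, short lines for the mean of 2 arrays and a dashed line at the filter on dim signals. Both FAD points lie above both mock points for XTH16, XTH18, XTH19 and XTH33, by a narrow margin for XTH18; heights of different genes come from different probes and are not relative transcript amounts.

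XTH18 (AT4G30280), XTH19 (AT4G30290) and XTH20 (AT5G48070) belong to one closely related branch of the family, best known from roots. In cut inflorescence stems XTH19 and XTH20 act in the reunion of the tissue. In the TAIR10.1 gene order XTH18 lies between XTH24 and XTH19 on chromosome 4, with no other protein-coding gene between XTH18 and XTH19. The probe sequences were not used here, so how far the probe sets of these relatives read each other's transcripts was not tested.

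XTH18 gave a bright signal in mock leaves, 14895 and 16295 on the 2 mock arrays, and 21935 and 16744 on the FAD arrays. The lower FAD array stood 1.03 times above the higher mock array, so the groups barely separated. The log2 fold change was 0.30 ± 0.18 (SE) with a 95% interval from -0.11 to 0.71 (limma adjusted p = 0.782). Its size rested on single FAD arrays, with 0.10 without FAD replicate 1 and 0.49 without FAD replicate 2. Under quantile normalization or median centring the XTH18 groups overlapped.

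For XTH19 the mock arrays read 2506 and 2516 and the FAD arrays 3222 and 3969. The mock arrays were nearly equal, at a mean of 2511 ± 7.52 (SD, n = 2), and the FAD arrays lay above both by a factor of at least 1.28. The ratio of FAD over mock was 1.42, with a 95% confidence interval from 1.08 to 1.87. On the log2 scale the difference was 0.51 ± 0.17 (SE, limma adjusted p = 0.582, unadjusted p = 0.0183). It was 0.36 without FAD replicate 2 and 0.66 without FAD replicate 1.

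XTH20 was dim, with 84.1 and 49.4 on the mock arrays and 72.5 and 62.4 on the FAD arrays. Both FAD values lay between the mock values. Its mean stood at the 40.5th percentile of all probe sets, just inside the filter at the 40th, and its log2 fold change was 0.06, with a 95% interval reaching from -0.87 to 0.99 (limma adjusted p = 0.987). The sign turned under other scaling, to -0.061 with quantile normalization and -0.027 with median centring. As a ratio of FAD over mock the interval ran from 0.548 to 1.99, wider than that of any other of the 7 genes.

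XTH16 (AT3G23730) had signals of 1333 and 1571 in mock leaves and 2246 and 1938 on FAD. The lower FAD array exceeded the higher mock array by a factor of 1.23, while arrays of the same treatment differed by factors of 1.18 and 1.16. The ratio of FAD over mock was 1.44, with a 95% confidence interval from 1.08 to 1.92, and the log2 difference was 0.53 ± 0.18 (SE, limma adjusted p = 0.582, unadjusted p = 0.0190). Without FAD replicate 2 it was 0.63, and without FAD replicate 1 it was 0.42.

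XTH33 (AT1G10550) encodes a family member with a predicted membrane-spanning stretch, unlike most XTH proteins, which are secreted into the wall. Its signals were 388 and 412 on the mock arrays and 497 and 688 on the FAD arrays. The groups did not overlap, and the FAD arrays differed from each other by a factor of 1.39, more than the mock arrays at 1.06. With a ratio of 1.46 and a 95% confidence interval from 1.03 to 2.08, XTH33 had the highest ratio of the 7 genes and also the widest interval among the 4 that separated. The log2 difference was 0.55 ± 0.22 (SE, limma adjusted p = 0.684, unadjusted p = 0.0381), and it was 0.31 without FAD replicate 2 against 0.78 without FAD replicate 1.

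EXGT-A3 (AT2G01850) is known from the tracheary elements of leaf veins, where its loss disturbs vein development. It was bright, at 7854 and 7588 on the mock arrays and 6622 and 7768 on the FAD arrays. FAD replicate 2 fell between the mock arrays and FAD replicate 1 below them. The log2 fold change was -0.11 ± 0.16 (SE) with a 95% interval from -0.47 to 0.26 (limma adjusted p = 0.925), which on the linear scale runs from 0.722 to 1.2 times the mock level. Without FAD replicate 1 it was 0.0090, and without FAD replicate 2 it was -0.22. No xylem marker of the 5 written had a named probe set, so the vein cells themselves could not be followed.

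XTH32 (AT2G36870) belongs to the small branch of the family in which hydrolase activity was found, first in nasturtium seed. The mock arrays read 529.5 and 300.4 and the FAD arrays 409.7 and 247. Replicate 1 was brighter than replicate 2 in both treatments, by 1.76 times on water and 1.66 times on FAD, and the groups overlapped. The log2 fold change was -0.33 ± 0.34 (SE) with a 95% interval from -1.12 to 0.47 (limma adjusted p = 0.878). Its sign rested on single arrays, with 0.084 without mock replicate 1 and 0.039 without FAD replicate 2. XTH32 and XTH20 had the 2 largest standard errors of the 7 genes.

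**Figure D2:**
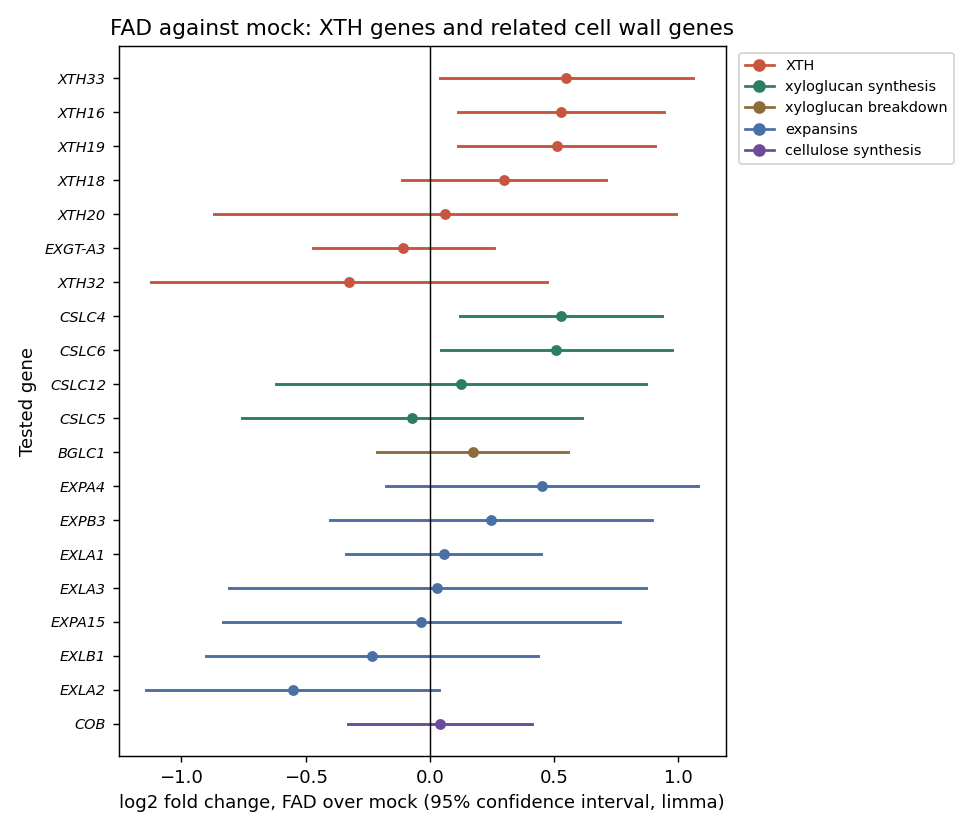
Log2 fold change of FAD over mock (points) with its 95% confidence interval (lines, limma, 2 arrays per treatment) for the 7 XTH genes and the 13 tested genes of the related wall lists, coloured by list. The intervals of XTH33, XTH16, XTH19, CSLC4 and CSLC6 lie above 0, and none of these genes passed after adjustment.

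Counted over the 7 genes, the log2 fold change was above 0 in 5 and below it in 2, where 57.5% of all tested probe sets were above 0. The median was 0.30, a ratio of 1.23, whereas the tested probe sets as a whole had a median of 0.05. In 4 of the 7 both FAD arrays lay above both mock arrays, against 22% of all tested probe sets, and in 0 both lay below, against 15%. Upward separation of this kind was thus common on these arrays. At an unadjusted p under 0.05, 3 of the 7 were higher, beside 3.03% of all tested probe sets, and 0 were lower, beside 3.84%. This count of 3 was 1 with median centring, 0 without mock replicate 1 and 1 without mock replicate 2. The genes were picked with results known, so these shares describe the list and carry no test of it.

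**Figure D3:**
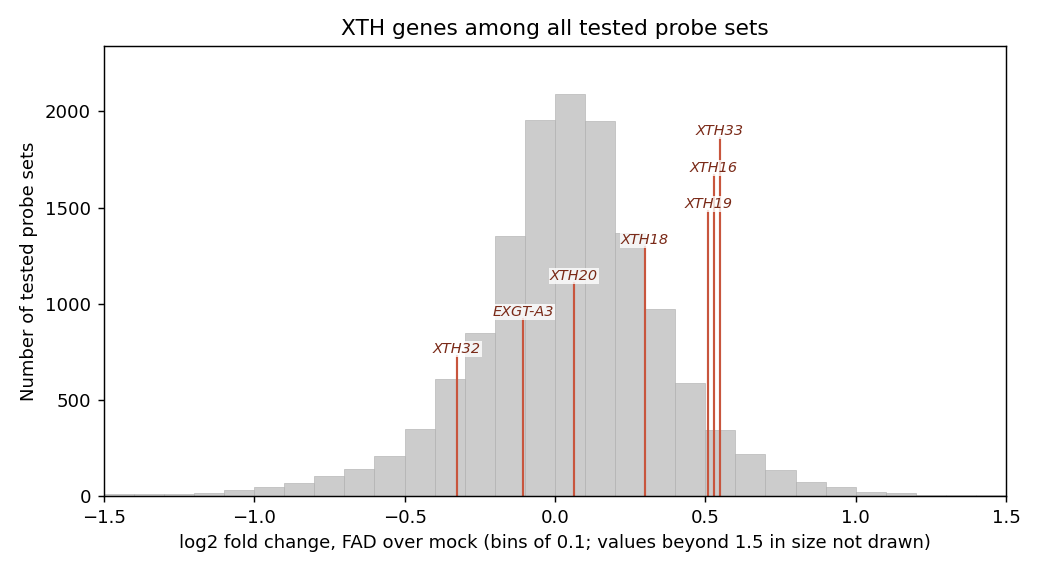
Number of tested probe sets (grey bars) by log2 fold change of FAD over mock in bins of 0.1, with each XTH gene marked by a red line at its own value; the height of a line has no meaning. XTH19, XTH16 and XTH33 stand together between 0.51 and 0.55, where 6.12% of all tested probe sets are at or above the lowest of them, and the other 4 genes lie within the bulk.

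The smallest change among the 5 called probe sets was 3.98-fold. The upper ends of the 95% confidence intervals of the 7 XTH genes ran up to a ratio of 2.08, for XTH33. The ratios of 1.42 to 1.46 of XTH16, XTH19 and XTH33 were smaller than every change that passed in this fit, and the intervals do not show that these genes were alike in both treatments.

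Beside XTH19, which had the largest moderated t of the 7 genes, the tested genes with the most similar profile over the 4 arrays were VPS20.1, AT1G29980, AT1G21380, AT4G14900 and SPK1. Likeness was the Euclidean distance between log2 signals centred on each probe set's mean, from 0.033 for VPS20.1 to 0.078 for SPK1. Their log2 fold changes ran from 0.44 to 0.52, which follows from choosing them by likeness to XTH19 on these same arrays. Within a distance of 0.2 lay 100 of 7314 candidates.

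Another 3 genes of the family had a named probe set, XTH21, XTH26 and XTH29, and all of them were below the filter. XTH21, which acts in root growth, read 1.14 and 2.65 on the mock arrays and 4.03 and 15.2 on the FAD arrays. XTH26, a gene of root hairs, stayed between 1.68 and 2.97, and XTH29 between 20.5 and 44. These signals are too dim for a fold change to be read. The annotation used here named no single-gene probe set for 23 of the 33 family members, among them the touch-induced TCH4 (XTH22), so most of the family was not followed.

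Of the enzymes that build xyloglucan, 5 of the 15 written had a named probe set, all of the CSLC family, and 4 were tested. None passed in either direction, and 2 of the 4 were higher at an unadjusted p under 0.05, beside 3.03% of all tested probe sets. CSLC4, a synthase of the glucan backbone, read 3670 and 4210 in mock leaves and 5101 and 6283 on FAD. Its groups did not overlap, and its log2 fold change of 0.53 (standard error 0.17, limma adjusted p = 0.582) was close in size to those of XTH16 and XTH19. CSLC6 had 261 and 306 in mock and 401 and 403 on FAD, also without overlap, a log2 fold change of 0.51 (standard error 0.20, limma adjusted p = 0.679). Among the 4 tested genes 2 thus separated upward and 0 downward, beside 22% and 15% of all tested probe sets. CSLC12 and CSLC5 had 0.12 and -0.072 with overlapping groups. CSLC8 was below the filter, at 48.1 and 29.1 in mock and 69 and 71.8 on FAD, too dim for a difference to be read. The median of the 4 tested genes was 0.32.

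BGLC1 (AT5G20950), a beta-glucosidase that trims xyloglucan fragments in the wall, was the 1 gene of 5 in the breakdown list with a named probe set. Its log2 fold change was 0.17, and the 95% interval ran from -0.21 to 0.56 (limma adjusted p = 0.869). Both FAD arrays lay above both mock arrays, as in 22% of all tested probe sets.

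Expansins loosen walls without cutting their polymers. Of 26 written, 15 were named in the annotation and 7 passed the filter, of which 0 passed in either direction and 0 had an unadjusted p under 0.05. The median of the 7 was 0.03. EXLA2, an expansin-like gene, read 1974 and 3353 in mock and 1719 and 1792 on FAD, a log2 fold change of -0.55 (standard error 0.25, limma adjusted p = 0.75) with both FAD arrays below both mock arrays. EXPA4 had 0.45 and EXPB3 0.25, each with both FAD arrays above both mock arrays, and EXLB1 had -0.23 with overlapping groups. Among the 7 tested expansins 2 thus separated upward and 1 downward, beside 22% and 15% of all tested probe sets. COB, which orients cellulose deposition and was the 1 gene of 13 in the cellulose list with a named probe set, had 0.04.

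Other measures also separated the treatments. Both leaf markers were higher on both FAD arrays than on either mock array. Their log2 fold changes were 0.19 for LHCB4.1 (limma adjusted p = 0.839) and 0.16 for RCA (limma adjusted p = 0.865). The guard cell marker FMA was also higher on both, at 0.58 (limma adjusted p = 0.763). Such upward separation was seen in 22% of all tested probe sets, so it does not set these markers apart. The phloem marker SWEET11 had -0.022 with overlapping groups. Below the filter, the dividing cell marker HTR12 read 24.8 and 21.1 on the mock arrays and 54.8 and 36 on the FAD arrays. The root hair markers EXPA7 and EXPA18, also below the filter, had both FAD arrays above both mock arrays as well. The signals of HTR12, EXPA7 and EXPA18 are too dim for a difference to be read. No epidermis marker was named. The ratio of 3' to 5' signal of actin, which reads RNA integrity, was 31 and 33 on the mock arrays but 23.6 and 27.5 on the FAD arrays by one pair of control probe sets, and 5.42 and 5.56 against 4.7 and 5.34 by the other. The GAPDH and ubiquitin ratios overlapped. The part of cell makeup or RNA integrity in the XTH values was not tested.

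**Figure D4:**
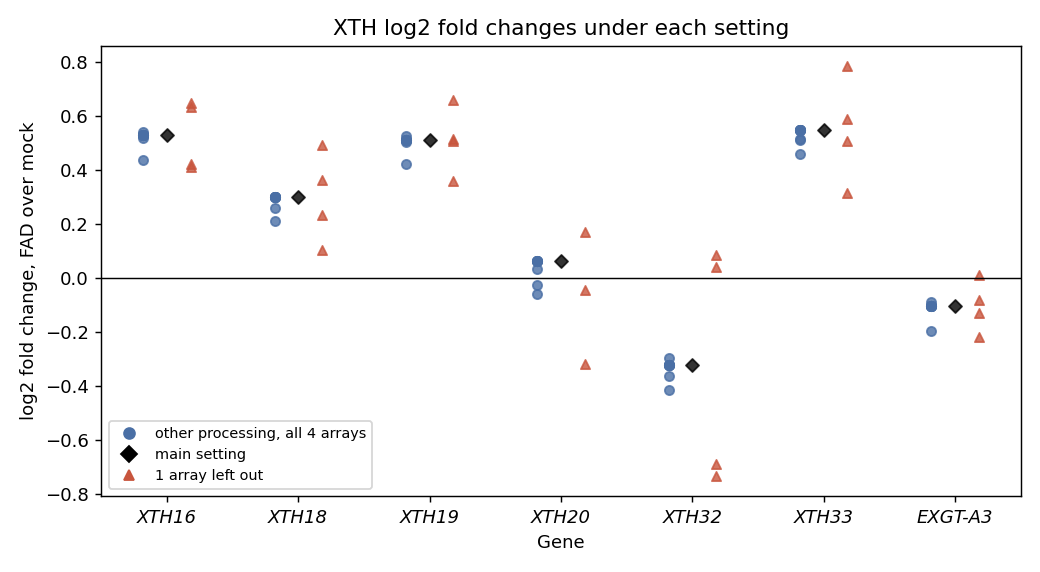
Log2 fold change of FAD over mock for each XTH gene in the main setting (black diamonds), under other processing of all 4 arrays (blue circles) and with 1 array left out (red triangles). XTH16, XTH18, XTH19 and XTH33 stay above 0 under each setting run, whereas XTH20, XTH32 and EXGT-A3 have values on both sides of 0. For XTH16, XTH18, XTH19 and XTH33 both FAD arrays lay above both mock arrays. Only quantile normalization and median centring could therefore have turned their sign.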

How the data were processed

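RNA from Col-0 leaves was hybridised to 4 one-colour arrays. Per the labels' protocols it was labelled with biotin by a 3' in vitro transcription kit. The authors deposited linear intensity values, 1 for each probe set on each array, made with GCOS per the submitters' processing notes (version and algorithm not given in the sources used here). Trimmed means (2% from each end) differed by 0.000764%, so no further scaling was applied. After leaving out 64 control probe sets, the other 22746 were log2 transformed, and the 13648 with a mean at or above the 40th percentile were tested with limma 3.58.1 in R 4.3.3 (lmFit, eBayes with trend, treatment as the only term, 2 residual and 5.43 prior degrees of freedom), with p-values adjusted by Benjamini-Hochberg over all of them. The fit was tested on simulated data. These had independent arrays and variances drawn from the fit's own prior, so dependence between arrays was not covered. The number of arrays limits the precision; an exact permutation test of 2 against 2 cannot go below 0.333 and was not used.

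Names came from the platform annotation, updated through gene IDs in the TAIR10.1 table; 13513 probe sets had 1 gene, 503 several and 8730 were unlisted. Coordinates are not given because the files state no genome build, and probe, promoter and protein sequences were not used here. Named are the 7 genes, other XTH and xyloglucan genes with a probe set of their own, up to 4 tested expansin and cellulose genes by moderated t, and the 5 profiles nearest to the XTH gene of largest moderated t. The members and all lists were chosen with earlier results of these data known. There were 14 alternatives: leaving out each array, a replicate block, array weights, a robust fit, eBayes without trend, a test on each own variance, quantile normalization, centring on medians, adding 32 to each signal, and the filter removed or moved to the 60th percentile. Figures were drawn with matplotlib 3.10.9.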

Additional observations from a re-analysis of the deposited data

How the results depend on the processing

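None of the 7 XTH genes was called under any alternative that kept all 4 arrays and tested the gene. The smallest limma adjusted p of the 7 with the replicate number as a block was 0.133, for XTH19. With that replicate block 36 probe sets were called higher and 153 lower; what the number stands for is not in the labels, and same-numbered arrays deviated from their group means with a correlation of 0.219. The count of 5 called lower was 0 without the trend, 0 with own variance alone, 2 without the filter, 2 when the filter was moved to the 60th percentile, 18 with median centring and 1 to 4 with 1 array left out, where 0 to 1 were called higher. The cause was not tested. The count of 3 XTH genes at an unadjusted p under 0.05 was 1 with median centring, beside 1.74% of all tested probe sets. It was 0 with own variance alone, beside 3.45%, and 4 with the replicate block, beside 6.18%. The median log2 fold change of the 7 XTH genes, 0.30, was 0.404 with the filter at the 60th percentile, where XTH20 is not tested. It was 0.104 to 0.364 with 1 array left out. With 1 array left out the lone array is assumed to vary like the others. In those fits XTH20 ran from -0.322 to 0.17, with -0.0449 without FAD replicate 1, and was below the filter without mock replicate 1. XTH20 was -0.0606 with quantile normalization and -0.0272 with median centring. XTH32 ran from -0.734 to 0.0837, with 0.0389 without FAD replicate 2, and EXGT-A3 from -0.221 to 0.00902. XTH16, XTH18, XTH19 and XTH33 kept a positive sign in each alternative, with ranges of 0.41 to 0.65, 0.10 to 0.49, 0.36 to 0.66 and 0.31 to 0.78. In these genes both FAD arrays lay above both mock arrays, so only quantile normalization and median centring could have turned that sign. Of the 4 genes with separate groups, XTH18 overlapped with quantile normalization and median centring. The median over all tested probe sets moved by less than 0.1 in each alternative, but with median centring it went from 0.05 to -0.04. The share of tested probe sets higher at an unadjusted limma p under 0.05 was then 1.74%, against 3.03% in the main setting. Averaging several probe sets of a gene could not be applied, since each of the 7 genes had 1.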
